A study of Mus musculus with 12 samples.

Results

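Endothelial identity genes are genes whose transcripts mark the cells that line blood vessels. A list of 42 of them was examined in cultured mouse endothelial cells carrying or given tumour necrosis factor (TNF), out of 18193 genes that the arrays represent with a single symbol. The list was drawn up with earlier results of these data known. Its members were found by gene symbol in the platform's annotation, and each was read from the probe set with the highest mean log2(signal + 16) over the 12 arrays. All 42 members reached a signal of 100 on at least 1 array. Of these, 41 reached it on at least 4 arrays and were tested for differences, together with 10269 genes in all. The exception was Aplnr, the receptor for the peptide apelin.

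RNA from endothelial cells of wild-type newborn mice was hybridised to 12 Affymetrix arrays, 4 in each of 3 groups. The control cells were mock-transfected. The tmTNF cells carried, by stable transfection, a mutant murine TNFalpha that stays in the membrane because it cannot be cleaved, and the soluble TNF cells were exposed to TNFalpha at 20 ng/ml for 4 hours. In each group the medium was DMEM with foetal calf serum, glutamine and antibiotics. The design sets a lasting TNF signal in the membrane and a short soluble one each against the control. The labels do not give the organ the cells came from, the promoter of the transgene, whether a transfected line is 1 clone, or whether the cells given soluble TNF were mock-transfected too. Nor do they state a separate culture or animal for each of the 4 arrays of a group. The p-values therefore reflect the spread among these arrays alone, and not that of a known number of cultures or animals.

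Endothelial identity is set by a small network of transcription factors of the ETS, SOX, GATA and SCL families, which bind the regulatory regions of genes for growth factor receptors, junction proteins and surface glycoproteins. The receptors Kdr, Flt1, Tie1 and Tek take up the signals of vascular endothelial growth factor and the angiopoietins. Soluble TNF is a classical activator of endothelium, which then displays adhesion molecules for leukocytes.

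Each array had between 17652 and 19174 probe sets at a signal of 100 or more, and within groups the arrays correlated over all genes tested at between 0.744 and 0.881 in the controls, 0.796 and 0.939 in tmTNF, and 0.877 and 0.983 in soluble TNF. No pair of arrays held identical values. The number of arrays, 4 a group, limits the precision of each difference. The Y-linked genes Eif2s3y, Kdm5d and Uty had signals of at least 218.8 on the 4 tmTNF arrays and of at most 39.5 on the other 8, while Xist stayed at or below 62.5 on all 12. The tmTNF cells therefore differed from the rest in their Y-linked transcripts as well as in the transgene, and the 2 cannot be told apart in any comparison with tmTNF. As a check of the labelled cell type, endothelial transcripts were present in each group, although 3 arrays, control 3, tmTNF 2 and tmTNF 4, stood apart with low levels of many of them.

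The RefSeq table (GRCm38.p6) held a promoter, the 250 bases before to 50 after the transcription start, for 20 of the 42 members. The promoters printed here are shown as examples of 6 functional groups, each by its brightest member with an entry. Of the 6 genes, Egfl7, Myct1 and Tie1 had their 3 lowest signals on control 3, tmTNF 2 and tmTNF 4, and Cd34, Eng and Calcrl did not. Egfl7 encodes a secreted protein of the vessel wall (chr2:26580833-26581132, plus strand, the first of 3 starts in the table). Cd34 encodes a sialomucin (chr1:194938571-194938870, plus strand), Myct1 a small membrane protein (chr10:5593478-5593777, plus strand) and Eng the TGF-beta co-receptor endoglin (chr2:32646345-32646644, plus strand). Tie1 encodes a receptor tyrosine kinase (chr4:118489800-118490099, minus strand) and Calcrl the calcitonin receptor-like receptor (chr2:84425217-84425516, minus strand). Capitals mark matches, on either strand, to the ETS motifs AGGAAG and CCGGAA, the GATA motif AGATAA and the SOX motifs ACAATG and ACAAAG.
Egfl7: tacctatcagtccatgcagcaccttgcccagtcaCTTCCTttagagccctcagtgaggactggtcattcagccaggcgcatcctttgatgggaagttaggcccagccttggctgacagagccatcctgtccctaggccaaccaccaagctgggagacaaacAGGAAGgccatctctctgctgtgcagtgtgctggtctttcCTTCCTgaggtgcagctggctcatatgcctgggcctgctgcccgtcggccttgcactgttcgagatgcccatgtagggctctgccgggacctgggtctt
Cd34: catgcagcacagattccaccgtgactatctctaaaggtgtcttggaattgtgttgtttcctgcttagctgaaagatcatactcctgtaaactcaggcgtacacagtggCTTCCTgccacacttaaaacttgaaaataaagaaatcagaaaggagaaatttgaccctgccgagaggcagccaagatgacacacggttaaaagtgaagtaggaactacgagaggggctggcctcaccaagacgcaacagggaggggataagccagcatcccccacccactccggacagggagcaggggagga
Myct1: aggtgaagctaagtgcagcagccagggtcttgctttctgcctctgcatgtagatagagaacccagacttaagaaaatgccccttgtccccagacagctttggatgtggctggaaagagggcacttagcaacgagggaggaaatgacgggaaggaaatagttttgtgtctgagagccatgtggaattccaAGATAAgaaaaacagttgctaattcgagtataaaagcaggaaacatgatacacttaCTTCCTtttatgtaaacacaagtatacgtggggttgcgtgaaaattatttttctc
Eng: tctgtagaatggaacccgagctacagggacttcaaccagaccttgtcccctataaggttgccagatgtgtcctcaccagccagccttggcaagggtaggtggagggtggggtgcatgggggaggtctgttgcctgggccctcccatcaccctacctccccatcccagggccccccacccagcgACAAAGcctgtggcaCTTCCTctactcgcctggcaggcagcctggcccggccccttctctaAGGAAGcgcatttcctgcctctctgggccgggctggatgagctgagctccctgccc
Tie1: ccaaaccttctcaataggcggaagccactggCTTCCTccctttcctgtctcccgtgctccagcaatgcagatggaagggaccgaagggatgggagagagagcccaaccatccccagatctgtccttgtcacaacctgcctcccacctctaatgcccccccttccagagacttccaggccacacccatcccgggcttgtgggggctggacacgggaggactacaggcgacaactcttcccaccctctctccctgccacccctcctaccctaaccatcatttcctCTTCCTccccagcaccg
Calcrl: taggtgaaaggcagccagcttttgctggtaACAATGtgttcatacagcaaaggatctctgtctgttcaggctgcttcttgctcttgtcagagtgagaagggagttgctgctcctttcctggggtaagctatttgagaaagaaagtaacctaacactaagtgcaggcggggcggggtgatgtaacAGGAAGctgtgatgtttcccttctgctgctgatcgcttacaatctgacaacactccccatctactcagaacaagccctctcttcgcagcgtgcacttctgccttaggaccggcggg

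The ETS letters AGGAAG were found in each of these 6 promoters, with 3 matches for Egfl7, 2 each for Eng and Tie1, and 1 each for Cd34, Myct1 and Calcrl. Myct1 also held 1 GATA match, and Eng and Calcrl held 1 SOX match each. Over the 20 member promoters, AGGAAG was present in 12 (60%), compared with 35.1% of the 27025 promoters in the table. The other motifs stood at or below 3 of 20. CCGGAA was in 1 member promoter (5%, against 15.2% of all), AGATAA in 3 (15%, against 11.4%), ACAATG in 1 (5%, against 12.8%) and ACAAAG in 3 (15%, against 18.7%). Both ETS motifs hold the letters GGAA, no matches overlapped in these 6 promoters, and a match describes the letters and is not a shown binding site.

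No member passed the test in any of the 3 comparisons. By limma with Benjamini-Hochberg adjustment over 10269 genes, 0 of 41 members had an adjusted p under 0.05 between tmTNF and control, where 0.195% of all genes did. The count was also 0 of 41 between soluble TNF and control, where 0.0390% of all genes passed, and 0 of 41 between tmTNF and soluble TNF, where 1.22% passed. At an unadjusted p under 0.05 the counts were 1, 1 and 2 members, against 7.56%, 12.7% and 19.9% of all genes. The lowest adjusted p of any member was 0.332, 0.391 and 0.144 in the 3 comparisons in that order.

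The fitted differences were small at the median and wide in their intervals. The median log2 difference of the members was -0.13 between tmTNF and control (all genes 0.03), with 14 of 41 members above 0 (53.2% of all genes). Between soluble TNF and control the median was 0.12 (all genes -0.05), with 27 members above 0 (45.8% of all genes). Between tmTNF and soluble TNF it was -0.15 (all genes 0.08), with 18 members above 0 (55.9% of all genes). These comparisons share groups and are not separate evidence. The 95% interval of a member reached, at the median, 1.88 on the log2 scale to either side, compared with 0.69 for all genes. Members differed in this, since the SE of a difference ran from 0.19 for Tal1 to 1.87 for Gpihbp1. The direction of the list changed with single arrays. Leaving out control 3 alone moved the medians against control to -0.97 for tmTNF and -0.59 for soluble TNF, and leaving out tmTNF 2 alone moved the first to 0.24. The count of members above 0 between tmTNF and control, 14 with all arrays, was 27 without control 2, 5 without control 3, 22 without control 4, 31 without tmTNF 2, 9 without tmTNF 3 and 29 without tmTNF 4. Between soluble TNF and control it was 4 without control 3, and between tmTNF and soluble TNF it was 7 without tmTNF 1, 28 without tmTNF 2 and 8 without tmTNF 3.

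**Figure D1:**
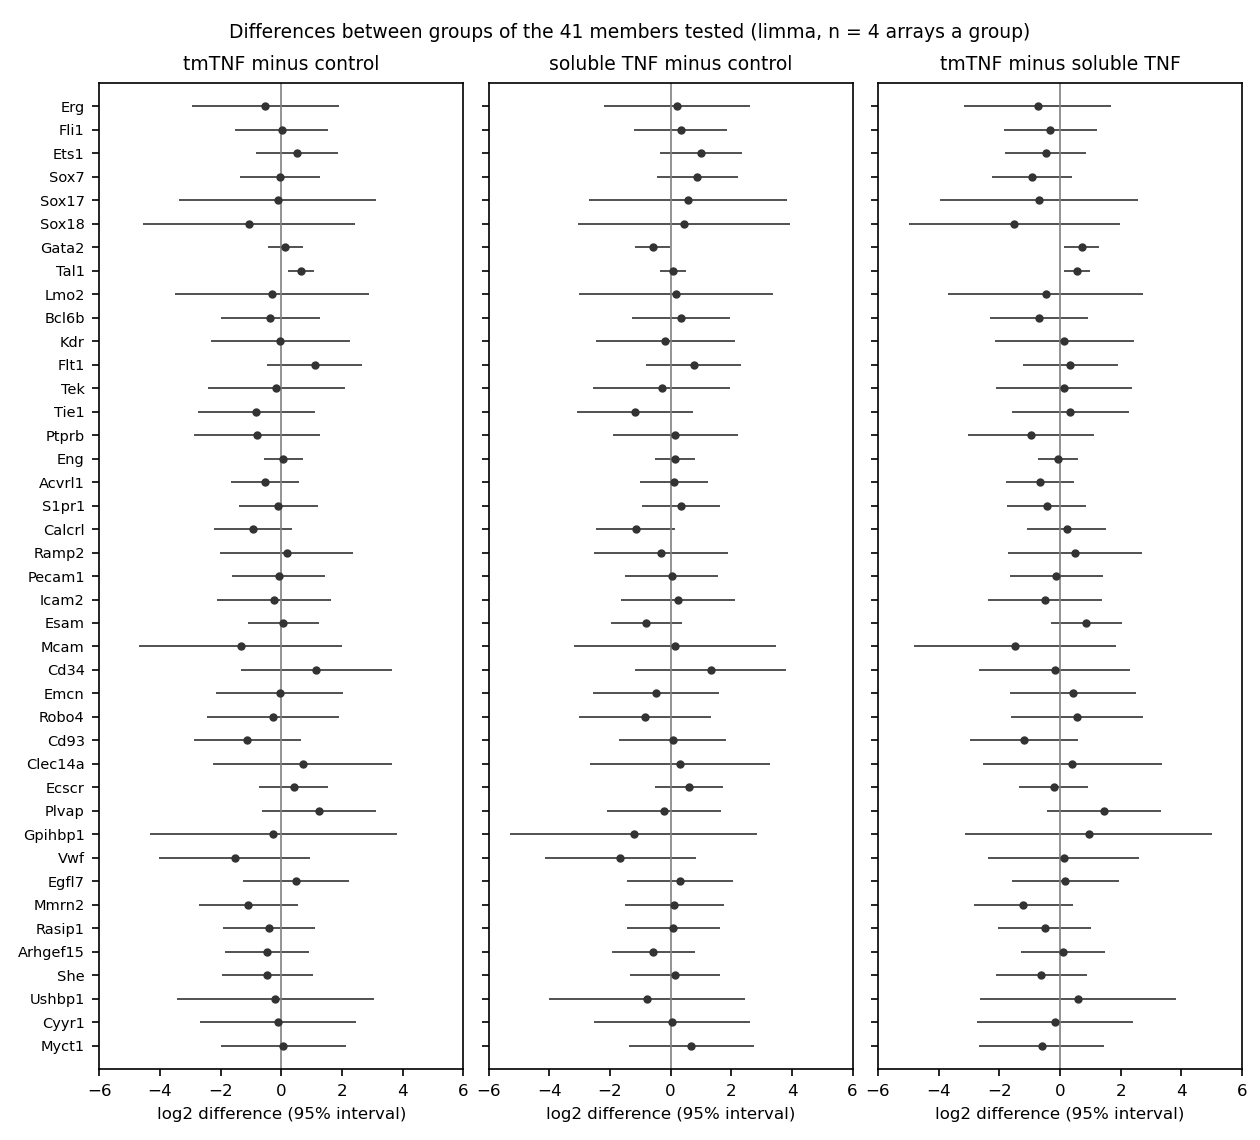
Log2 differences of the 41 tested members in the 3 comparisons (x axis, log2 scale of signal + 16), with 95% intervals from limma, 4 arrays a group. Most intervals span 0, and those of Tal1 and Gata2 are among the narrowest.

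Of the 10 transcription factors, Tal1 was the member whose groups stood furthest apart relative to their spread. Tal1 encodes SCL, a basic helix-loop-helix factor of blood and endothelial development. Its signals were 1128, 844, 1152 and 779 on control arrays 1 to 4, 1293, 1537, 1599 and 1647 on tmTNF arrays 1 to 4 and 1000, 866, 1123 and 1100 on soluble TNF arrays 1 to 4, the order used for each gene that follows. Each tmTNF array lay above each of the other 8. The log2 difference was 0.64 ± 0.19 (SE) between tmTNF and control (limma, adjusted p = 0.332), and 0.57 ± 0.19 (SE) between tmTNF and soluble TNF (adjusted p = 0.144), higher in 4 of 4 arrays in both. Groups that do not overlap were found for 3.17% of all genes between tmTNF and control and for 16.1% between tmTNF and soluble TNF, and Tal1 was the 1 member of 41 in each case. In the direction of Tal1, with tmTNF higher, the shares of all genes were 2.19% and 10.3%. With every array brought to the same median, the tmTNF and control groups of Tal1 overlapped. Under array quality weights the second adjusted p (limma) was 0.0467, in a fit where 1176 of 10269 genes passed, against 125 without weights. Over all alternatives the second adjusted p ran from 0.0467 to 0.42, and the first from 0.203 to 0.812. SCL is also a factor of blood cells, and the summed signal of 10 leukocyte markers ran from 906 to 18966 in control, 5313 to 7806 in tmTNF and 689 to 1227 in soluble TNF. Within that list Cd68 reached 18210 on control 1 and Cd14 5129 on tmTNF 2, while Ptprc, the general leukocyte marker, stayed at or below 38.8 on all arrays. The part of such cells in the Tal1 values was not tested.

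Gata2, a zinc finger factor of the GATA family, had signals of 743, 965, 870 and 963 in control, 688, 983, 1328 and 959 in tmTNF and 820, 406, 469 and 724 in soluble TNF. The soluble TNF values ran lower, but soluble TNF 1 lay above control 1, so the groups overlapped. The log2 difference was -0.59 ± 0.27 (SE) between soluble TNF and control (limma, adjusted p = 0.391) and 0.71 ± 0.27 (SE) between tmTNF and soluble TNF (adjusted p = 0.174). The other tested probe set of Gata2 gave -0.28 and 0.38 for these differences. Between soluble TNF and control no member had groups that did not overlap, against 8.11% of all genes. Without control 3 there were 8 such members, against 14% of all genes.

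The ETS factors behaved otherwise. Erg, a defining factor of the endothelial lineage, had signals of 2631, 2822, 140 and 3257 in control, 4156, 215, 3377 and 256 in tmTNF and 1152, 1936, 2337 and 1262 in soluble TNF. Fli1, its close relative, had 1689, 2364, 223 and 2167 in control, 2410, 495, 1888 and 921 in tmTNF and 1302, 1693, 2386 and 958 in soluble TNF. For both genes control 3, tmTNF 2 and tmTNF 4 lay below the other 9 arrays, and the range within the control or tmTNF group was wider than any gap between group means. Ets1, which is also expressed outside endothelium, ranged from 818 on control 3 to 7709 on control 2.

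Bcl6b, a zinc finger repressor and the brightest transcription factor of the list, repeated the pattern of Erg. Its signals were 10575, 12899, 1316 and 9800 in control, 10740, 2131, 13013 and 2177 in tmTNF and 7136, 7517, 9985 and 8433 in soluble TNF. The group means were 8648 ± 5062 in control, 7015 ± 5689 in tmTNF and 8268 ± 1268 in soluble TNF (SD, n = 4), and overlapped widely. Lmo2, the adaptor that bridges Tal1 and GATA factors, had 1599, 4772, 86.5 and 2515 in control, 4992, 111, 4499 and 291 in tmTNF and 446, 2248, 7530 and 398 in soluble TNF. Unlike Tal1, Lmo2 was lowest on control 3 and tmTNF 2.

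The 3 SOX factors of the F group differed in how far they varied. Sox18 had 1335, 15470, 192 and 8869 in control, 7314, 94.6, 10085 and 229 in tmTNF and 1405, 5813, 7712 and 2016 in soluble TNF, among the widest spreads of the list. Sox17, linked to arterial identity, had 3173, 715, 76.1 and 299 in control, 2411, 35.8, 1777 and 196 in tmTNF and 175, 1206, 7215 and 176 in soluble TNF, with its highest signal on soluble TNF 3. Sox7 kept within 279 on control 3 and 3216 on control 2. The median log2 difference of the 10 factors was -0.08 between tmTNF and control, 0.33 between soluble TNF and control and -0.58 between tmTNF and soluble TNF, with 4, 9 and 2 of the 10 above 0.

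**Figure D2:**
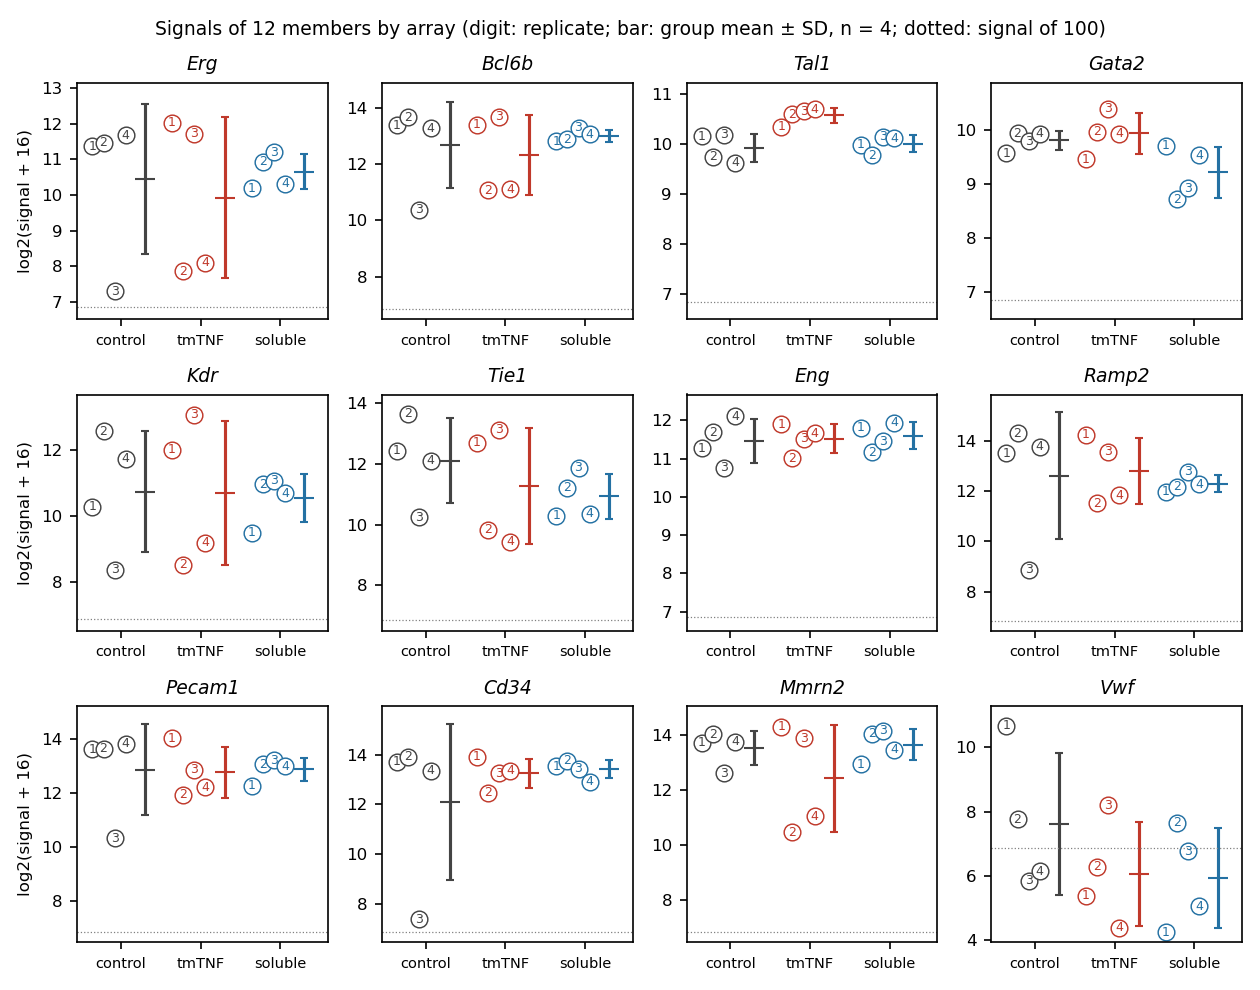
Log2(signal + 16) of 12 members on each array, with the group on the x axis, the replicate as a digit, and the group mean and SD (n = 4) as a bar; the dotted line is a signal of 100. In most panels control 3, tmTNF 2 and tmTNF 4 lie low, while Tal1, Gata2 and Eng keep a narrow range.

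Among the receptor tyrosine kinases, Tie1, an orphan partner of the angiopoietin receptor, was the brightest. Its signals were 5492, 12743, 1188 and 4393 in control, 6590, 897, 8920 and 677 in tmTNF and 1235, 2341, 3709 and 1295 in soluble TNF. The group means were 5954 ± 4880 in control, 4271 ± 4135 in tmTNF and 2145 ± 1160 in soluble TNF (SD, n = 4). The soluble TNF arrays lay below control 1, control 2 and control 4, but control 3 lay below all 4 of them. Tek, the receptor for the angiopoietins, had 1421, 4232, 98.8 and 4149 in control, 1571, 435, 4491 and 557 in tmTNF and 702, 1149, 1233 and 1216 in soluble TNF, with control 3 just under the limit of 100.

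Kdr, the main signalling receptor for vascular endothelial growth factor, had 1227, 6086, 312 and 3400 in control, 4115, 350, 8707 and 564 in tmTNF and 702, 1991, 2149 and 1637 in soluble TNF. The tmTNF group held both the highest Kdr signal of the 12 arrays, on tmTNF 3, and 2 of the 3 lowest. Ptprb, the endothelial phosphatase that acts on Tek, ranged from 370 on tmTNF 2 to 7191 on control 2. Flt1, a decoy and signalling receptor for the same growth factor, had 229, 574, 99.9 and 1927 in control and 370, 1030, 1688 and 993 in tmTNF. In soluble TNF it had 564, 640, 1044 and 657. Flt1 shared the low control 3 with these 4 genes but departed from them within tmTNF, where it was lowest on tmTNF 1. The list's median log2 differences for these 5 genes were -0.16, -0.18 and 0.14 for tmTNF against control, soluble TNF against control and tmTNF against soluble TNF.

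The TGF-beta and BMP receptors showed the contrast within a pair of partners. Eng had 2453, 3280, 1713 and 4407 in control, 3800, 2042, 2929 and 3238 in tmTNF and 3573, 2282, 2780 and 3917 in soluble TNF, and its group means of 2963 ± 1156, 3002 ± 735 and 3138 ± 743 (SD, n = 4) lay within the spread of any one group. Acvrl1, the type I receptor ALK1 that signals with endoglin, had 2838, 2283, 1162 and 2594 in control, 3795, 767, 1575 and 959 in tmTNF and 1296, 3600, 3736 and 1571 in soluble TNF. Acvrl1 was lowest on tmTNF 2, tmTNF 4 and control 3. Eng, over a narrower range, was also lowest on control 3 and tmTNF 2, but on tmTNF 4 it was above its level on tmTNF 3.

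The receptors for peptides and lipids that couple to G proteins included Calcrl and its partner Ramp2, which together form the adrenomedullin receptor. Ramp2 had 11562, 20067, 454 and 13826 in control, 19136, 2908, 11995 and 3640 in tmTNF and 3971, 4607, 6942 and 4899 in soluble TNF. The means were 11478 ± 8182 in control, 9420 ± 7678 in tmTNF and 5105 ± 1284 in soluble TNF (SD, n = 4), and control 3 alone lay below the soluble TNF range among the controls. Calcrl had 6007, 6132, 2167 and 3065 in control, 4323, 1573, 4308 and 608 in tmTNF and 1207, 1437, 3265 and 1736 in soluble TNF. S1pr1, the receptor for sphingosine 1-phosphate that stabilises junctions, ranged from 663 on control 3 to 4187 on tmTNF 1. Aplnr reached 100 on 3 arrays, at 121 on control 1, 3114 on control 2 and 429 on tmTNF 1, and stayed below 100 on the 4 soluble TNF arrays. It was too often under the limit to be tested.

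Surface glycoproteins and adhesion molecules formed the largest group, with 12 members. Pecam1, the junctional adhesion molecule CD31, had 12666, 12775, 1280 and 14688 in control, 16874, 3918, 7484 and 4767 in tmTNF and 4955, 8635, 9566 and 8142 in soluble TNF. Cd34, the brightest of the group, had 13518, 15486, 150 and 10525 in control, 15452, 5680, 9794 and 10502 in tmTNF and 11910, 13971, 11159 and 7683 in soluble TNF, so that its signal was low on control 3 but not on tmTNF 4. Mcam, the adhesion molecule CD146, had 4459, 7791, 215 and 8171 in control, 8343, 91.5, 9750 and 166 in tmTNF and 1437, 3979, 4811 and 3422 in soluble TNF. On tmTNF 2 Mcam was under the limit of 100, while tmTNF 1 and tmTNF 3 of the same group were among its highest values.

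Emcn, the sialomucin endomucin, had 19699, 18236, 1158 and 12962 in control, 26092, 2534, 18700 and 3733 in tmTNF and 3234, 10105, 11033 and 3929 in soluble TNF. Soluble TNF 1 and soluble TNF 4 were low for Emcn as well as the 3 arrays named above. The same extension to soluble TNF 1 and soluble TNF 4 was seen for Gpihbp1, which carries lipoprotein lipase across capillary endothelium, with 819, 17022, 76.6 and 843 in control, 6256, 52.7, 10806 and 99.1 in tmTNF and 84.6, 1196, 1698 and 170 in soluble TNF. Gpihbp1 had the widest spread of the tested members. Clec14a, a C-type lectin of vessels that binds Mmrn2, had 2641, 7298, 45.6 and 8577 in control, 9356, 769, 8061 and 1206 in tmTNF and 1624, 2273, 3515 and 1794 in soluble TNF, and was under the limit on control 3.

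Icam2, a constitutive ligand for leukocyte integrins, ranged from 1221 on control 3 to 15617 on tmTNF 1. Cd93, a lectin-like receptor that also binds Mmrn2, ranged from 646 on tmTNF 2 to 12070 on tmTNF 3, and Ecscr, a small surface protein of endothelium, from 1341 on control 3 to 10672 on tmTNF 1. For Icam2, Cd93 and Ecscr the 3 lowest arrays were again control 3, tmTNF 2 and tmTNF 4. Esam, a tight junction molecule, was lowest on soluble TNF 1, at 2403. Robo4, an endothelial receptor of the roundabout family, reached 100 on 8 arrays and was at most 1316. Plvap, the diaphragm protein of fenestrae and caveolae, was at 847, 4563, 477 and 7492 in control, 8090, 2182, 8566 and 2997 in tmTNF and 2260, 893, 850 and 4566 in soluble TNF, with low values on control 1, soluble TNF 2 and soluble TNF 3 as well as on control 3.

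The secreted proteins included Mmrn2, a matrix glycoprotein of the endothelial surface, at 13348, 16501, 6242 and 13675 in control, 20016, 1398, 15005 and 2111 in tmTNF and 7816, 16692, 18019 and 11228 in soluble TNF. On tmTNF 2 and tmTNF 4 Mmrn2 was at 1398 and 2111, whereas the other 10 arrays were at 6242 or more. Egfl7 had 10113, 22673, 1160 and 12576 in control, 17173, 4217, 26884 and 6692 in tmTNF and 7620, 12758, 12096 and 6765 in soluble TNF. Vwf, von Willebrand factor, the clotting protein of endothelial storage granules, reached the limit of 100 on 4 arrays, at 1612 and 201 on control 1 and 2, 278 on tmTNF 3 and 186 on soluble TNF 2. This defining marker was thus under the limit on 2 of the 4 control arrays and on 3 of 4 arrays in both other groups.

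The intracellular and small membrane proteins were led by Myct1, at 5109, 8432, 359 and 5435 in control, 11171, 902, 5604 and 1843 in tmTNF and 3620, 7757, 5896 and 3409 in soluble TNF. Rasip1, a Ras-interacting protein needed for lumen formation, ranged from 506 on tmTNF 2 to 4082 on tmTNF 1. Arhgef15 ranged from 374 on control 3 to 3718 on control 2, and the adaptor She from 824 on control 3 to 7990 on control 2. Ushbp1 ranged from 34.2 on control 3 to 5891 on control 2, and Cyyr1 from 35.2 on control 3 to 1567 on soluble TNF 3. In 5 of these 6 genes, Cyyr1 being the exception, the same 3 arrays were the lowest.

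The members moved together from array to array. For 25 of 41 members (61%) the 3 lowest of the 12 arrays were control 3, tmTNF 2 and tmTNF 4, an order found in 3.53% of all genes tested. For 35 members (85.4%) all 3 arrays lay under the gene's own median, compared with 17.3% of all genes. These arrays were picked out by the members' values, so the shares describe the pattern and are no test of it. By function, the 3 arrays were the lowest for 5 of 10 transcription factors, 4 of the 5 kinases and their phosphatase, 1 of the 2 TGF-beta and BMP receptors, 2 of the 3 tested G protein-coupled receptors and partner, 6 of 12 surface molecules, 2 of 3 secreted proteins and 5 of 6 intracellular proteins.

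Control 3 was the lowest of all 12 arrays for 25 members and the lowest control for 39 of 41, against 9.75% and 24.9% of all genes. tmTNF 2 was the lowest of all for 10 members and the lowest of its group for 32, against 9.49% and 25.3% of all genes. On the other side, tmTNF 1 was the highest of all for 14 members, control 2 for 12 and tmTNF 3 for 8. Averaged over members, the deviation from each gene's mean over the 12 arrays was -2.20 on the log2 scale for control 3, -1.53 for tmTNF 2 and -1.16 for tmTNF 4. It was 1.29 for control 2, 1.15 for tmTNF 3 and 1.12 for tmTNF 1. The soluble TNF arrays lay between -0.61 on soluble TNF 1 and 0.75 on soluble TNF 3. Over all genes tested the mean deviations of the 12 arrays stayed between -0.11 and 0.11. In bulk RNA such a low level cannot be split into fewer endothelial cells and less RNA per cell.

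**Figure D3:**
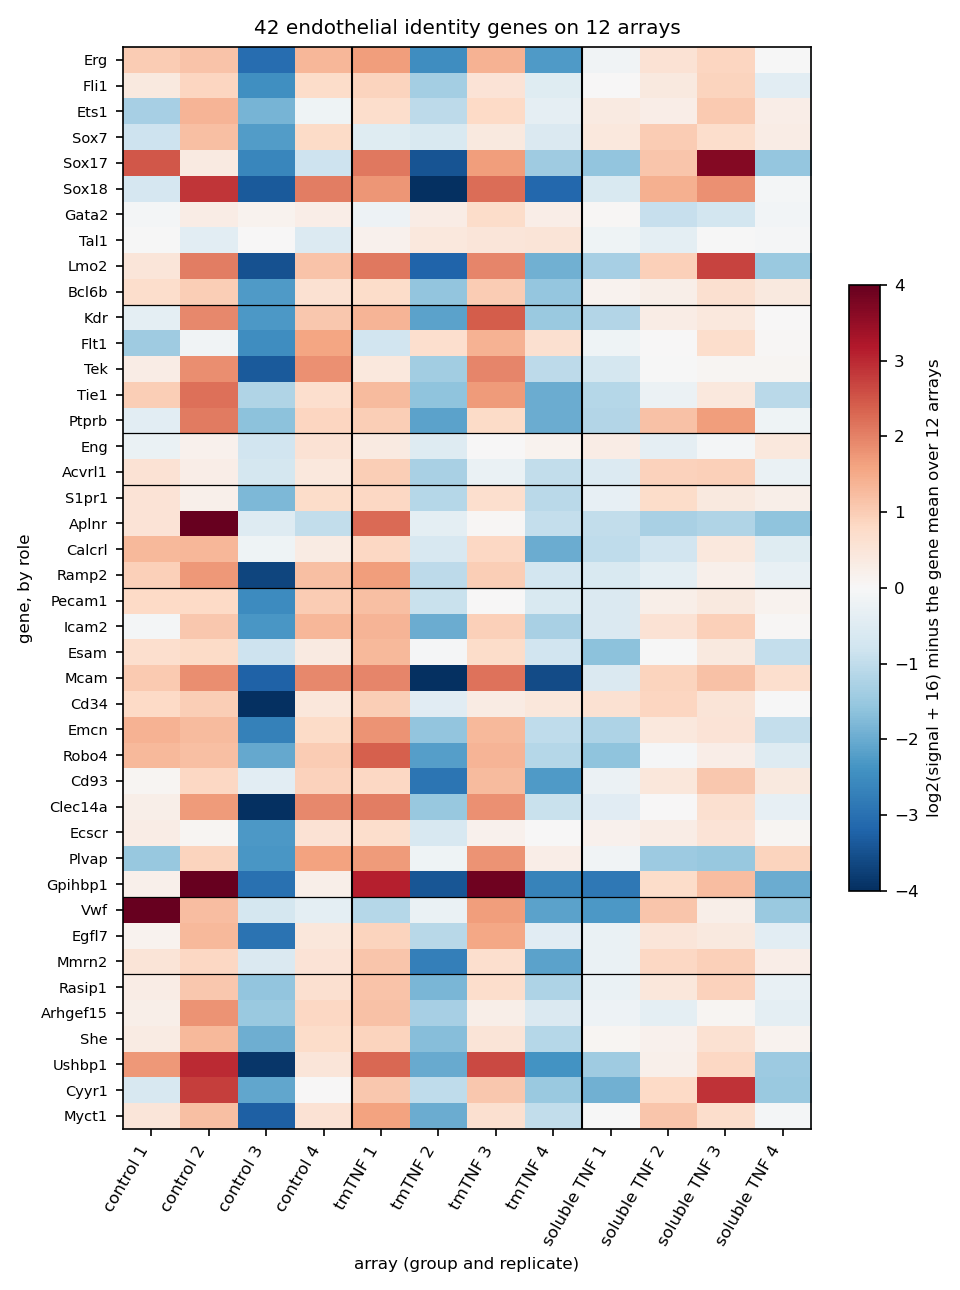
Heat map of the members (y axis) on the 12 arrays (x axis, by group and replicate), coloured by the log2 deviation from the gene's mean over the arrays, with the colour scale ending at 4 either way. Control 3, tmTNF 2 and tmTNF 4 form low columns, and the Tal1 and Gata2 lines do not follow them.

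With control 3, tmTNF 2 and tmTNF 4 left out together, an alternative chosen after seeing the data, 0 members passed against control in either comparison and 1 passed between tmTNF and soluble TNF, namely Ramp2, where 4, 17 and 154 of 10269 genes passed in the 3 comparisons. The omission took arrays out on the members' own levels and so raises the control and tmTNF means by construction. With it, 40 of 41 members were above 0 between tmTNF and soluble TNF, against 18 of 41 with all arrays. Between soluble TNF and control 4 rather than 27 were above 0, the same count as without control 3 alone. Groups that did not overlap were then found for 5, 8 and 19 members in the 3 comparisons, against 16.9%, 14% and 41.8% of all genes.

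The spread within groups was wide for the members as a class. Their median pooled SD within groups was 1.40 on the log2 scale, compared with 0.45 over all genes and 0.44 over the 10054 genes at least as bright as the dimmest tested member. Those 10054 are nearly all of the 10269 genes tested, so the members were not matched for brightness. Of 41 members, 38 lay above the median SD of all genes and 30 above its 90th percentile. The exceptions were Tal1, with an SD of 0.21, Gata2 with 0.36 and Eng with 0.45. The widest were Gpihbp1 with 3.05, Sox18 with 2.61 and Mcam with 2.50. Differences between groups made up 6.84% of a member's variation at the median, compared with 23.0% for all genes, but 71.4% for Tal1 and 49.2% for Gata2.

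The soluble TNF arrays were the most alike. The median SD of the members was 1.66 in control, 1.42 in tmTNF and 0.56 in soluble TNF, and the order was the same for all genes at 0.50, 0.42 and 0.29. The soluble TNF group had the smallest SD of the 3 for 34 of 41 members, compared with 60% of all genes. No test of the spread was made.

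**Figure D4:**
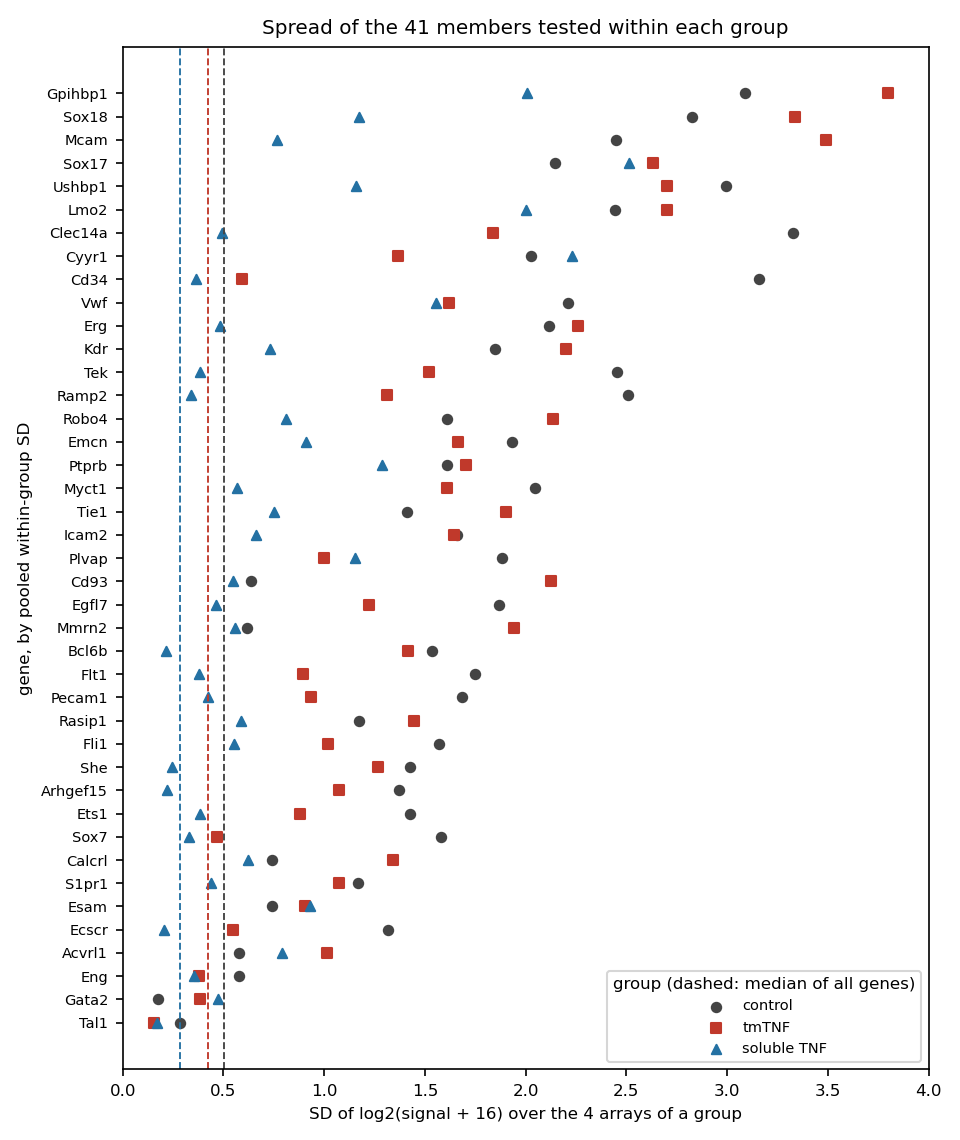
SD of log2(signal + 16) over the 4 arrays of each group (x axis) for the 41 tested members (y axis, in order of pooled SD), with the median of all genes as a dashed line per group. Most members lie to the right of the lines, and Tal1, Gata2 and Eng lie near them.

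Markers of other cell types were read on the same arrays. Krt19, a keratin of mesothelium and simple epithelia, had 166, 217, 7120 and 249 in control, 65.4, 11494, 79.3 and 5564 in tmTNF and 3244, 397, 348 and 2801 in soluble TNF. Msln, the mesothelial protein mesothelin, had 216, 53.5, 3412 and 91.6 in control, 40.5, 2460, 45.5 and 1288 in tmTNF and 938, 467, 24.3 and 1578 in soluble TNF. The 3 arrays lowest in the members were thus the 3 highest in Krt19, and were 3 of the 4 highest in Msln, with soluble TNF 4 as the other. Of 8 mesothelial markers the remaining 6, among them Wt1 at no more than 45.7, stayed under 100 on all arrays. The sum over the list ran from 370 to 10604 in control, 229 to 14145 in tmTNF and 444 to 4454 in soluble TNF.

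Fibroblast and mesenchymal markers did not follow a single pattern. Dcn, the matrix proteoglycan decorin, was at 3276 on tmTNF 2 and 7271 on tmTNF 4 but at 27.7 on control 3. Col3a1, a fibrillar collagen, was at 4547 on control 3 but at 18.3 and 55.9 on tmTNF 2 and tmTNF 4. It was also at 4119 on soluble TNF 1 and 3758 on soluble TNF 4. Pdgfra did follow the 3 arrays, with its highest signals on control 3 (579), tmTNF 2 (699) and tmTNF 4 (944). Its next highest signal was 517 on soluble TNF 4. Of the 12 genes, 4 (Lum, Thy1, Postn and Twist1) were under 100 on all arrays, and the summed signal ran from 1080 to 20807 in control, 3406 to 17149 in tmTNF and 9001 to 16564 in soluble TNF. In each of the control and tmTNF groups the arrays low in the members had the highest sums. Much of these sums came from 1 gene, Fn1, at 10138 on control 3, 11537 on tmTNF 2 and 6039 on tmTNF 4. Fn1 was also at 11341 on soluble TNF 2 and 8734 on soluble TNF 3, where the list summed to 11616 and 9001. The smooth muscle and pericyte list summed to 263 to 1465 in control, 329 to 2303 in tmTNF and 1098 to 1907 in soluble TNF, with 5 of 10 genes, Myh11 among them, under 100 throughout. Of the others, Acta2 had 506, 98.3, 121 and 1043 in control, 117, 101, 238 and 219 in tmTNF and 1524, 1151, 1668 and 736 in soluble TNF. Its tmTNF and soluble TNF groups did not overlap (limma, adjusted p = 0.0543), as for 16.1% of all genes. Pdgfrb reached 1337 on tmTNF 3.

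Leukocyte markers were led by Cd68, a lysosomal protein of macrophages, at 18210, 520, 2285 and 255 in control, 6728, 723, 4295 and 63.3 in tmTNF and 155, 150, 151 and 232 in soluble TNF. Cd14, a receptor of innate immunity found on other cells too, was at 265, 37.1, 1406 and 330 in control, 452, 5129, 377 and 4763 in tmTNF and 351, 157, 178 and 632 in soluble TNF. High Cd14 on tmTNF 2, tmTNF 4 and control 3 ran opposite to the members, and Cd68 did not. Of the 10 leukocyte genes, 5 were under 100 on all arrays, including Ptprc, and the sums are given with Tal1. Of 7 epithelial genes 5 were under 100 throughout, Cdh1 among them, and the list summed to 180 to 430 over the 12 arrays. Of the 5 lymphatic genes on the array, Prox1, Pdpn and Reln were under 100 throughout, and the sums ran from 2751 to 7804 in control, 324 to 8248 in tmTNF and 1110 to 5086 in soluble TNF. These sums came mostly from Lyve1 and Flt4, which reached 100 on 11 and 12 arrays. Lyve1 ranged from 57.6 on soluble TNF 3 to 6850 on control 1, and Flt4 from 127 on tmTNF 4 to 2561 on control 2. No tested marker of these lists passed the limma test. At an unadjusted p under 0.05 there was 1 leukocyte gene between tmTNF and control, 1 fibroblast, 1 smooth muscle and 1 leukocyte gene between soluble TNF and control, and 1 smooth muscle gene between tmTNF and soluble TNF. The part that other cells had in the members' levels was not tested.

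**Figure D5:**
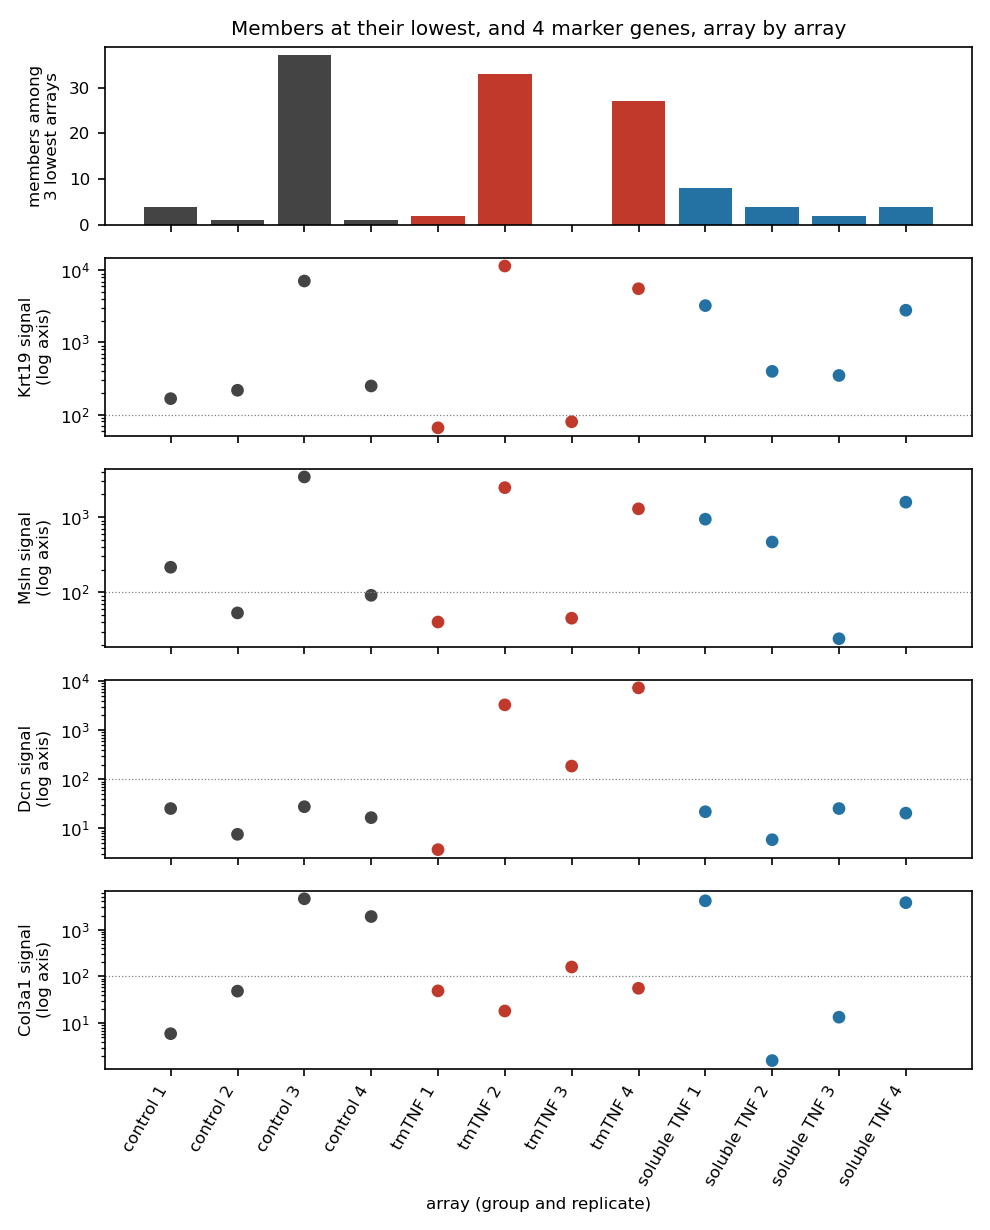
For each array (x axis), the number of the 41 tested members that have the array among their 3 lowest (top bars), and the signals of Krt19, Msln, Dcn and Col3a1 on log axes with a dotted line at 100. The bars are tallest for control 3 (37), tmTNF 2 (33) and tmTNF 4 (27), the arrays that are also highest in Krt19.

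A second list of 46 genes, other genes of endothelium that are not members, was read beside them, and 41 were tested. By limma, 0 passed between tmTNF and control, 1 was higher between soluble TNF and control and 1 was lower between tmTNF and soluble TNF. Of all genes, 0.195%, 0.0390% and 1.22% passed. At an unadjusted p under 0.05 the counts were 3, 6 and 7 of 41, against 7.56%, 12.7% and 19.9% of all genes. The gene that passed was Edn1 in both, the vasoconstrictor peptide endothelin 1, at 9.7, 6.3, 49.1 and 3.9 in control, 48.4, 234, 19.1 and 279 in tmTNF and 1170, 2618, 4205 and 618 in soluble TNF. Edn1 was below 100 on all control arrays and at 618 or more on all soluble TNF arrays (adjusted p = 0.0202 by limma against control, and 0.0349 between tmTNF and soluble TNF). Their median log2 differences were -0.15, -0.06 and -0.03 in the 3 comparisons.

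The array pattern of the members was found in part of this second list. For 8 of its 41 tested genes the 3 lowest arrays were control 3, tmTNF 2 and tmTNF 4, against 3.53% of all genes. For 23 of the 41 all 3 arrays lay under the gene's median, against 17.3% of all genes. Cdh5, the junction protein VE-cadherin, had 2815, 7305, 2200 and 6333 in control, 10330, 2668, 5432 and 1374 in tmTNF and 4010, 4553, 5699 and 4091 in soluble TNF. Cldn5, the tight junction protein claudin 5, had 1056, 13357, 77.8 and 5254 in control, 12913, 498, 21554 and 290 in tmTNF and 594, 5607, 9553 and 1361 in soluble TNF. Nos3, the endothelial nitric oxide synthase, had 19272, 10009, 2045 and 12446 in control, 19138, 2210, 13649 and 2220 in tmTNF and 7328, 8606, 7134 and 9132 in soluble TNF. In these 3 genes, too, control 3, tmTNF 2 and tmTNF 4 were low, and none of the 3 genes passed the limma test in any comparison. Most of the 41 did not have these arrays as their 3 lowest.

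Further probe sets of the same genes gave a technical check of the members' values. There were 30 of them, for 17 members, and 0 passed the limma test over 18022 probe sets in any comparison, with a lowest adjusted p of 0.362. Across the 12 arrays each correlated with the probe set used for its gene at between 0.833 and 0.997 (Pearson's r, median 0.967, n = 12 arrays), as values that share arrays and transcript. The sign of the difference was the same in 26, 27 and 28 of the 30 in the 3 comparisons.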

How the data were processed

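Total RNA, labelled with biotin, was measured on 12 arrays, and the intensity values used are the signals the authors deposited. The submitters' processing notes name MAS5 as the tool, and its version is not given in the sources used here. MAS5 subtracts mismatch signal, which makes low signals noisy, so a limit of 100 was used. The deposited signals had a 2% trimmed mean near 1000 on each array and were rescaled here to 500. Of 45101 probe sets, 34945 have 1 symbol in the platform annotation, 932 several and 9160 none, and 64 control probe sets were left out. Genes at or above 100 on at least 4 arrays were tested on log2(signal + 16) with limma 3.58.1 in R 4.3.3 (1 mean per group over all 12 arrays, intensity trend, two-sided, Benjamini-Hochberg adjustment over 10269 genes). Folds on this scale understate changes of dim genes.

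Groups come from the labels. Replicate numbers follow sample order, name arrays and pair none. Members and gene lists were chosen with earlier results of these data known, so no list is tested as a whole. Signals are given for all members. A log2 difference is given for a member with an adjusted or unadjusted p under 0.05 or groups that do not overlap, and array values for these, for the brightest member of each functional group and for further members that show the pattern, chosen after their values were seen. Alternatives were other scalings, pseudocounts of 1 and 64, other filters, other probe set rules, 2 groups only, no trend, array weights and leaving out each array. Promoters come from the RefSeq table of GRCm38.p6, and 22 members had no entry. Probe set coordinates were not used here.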

Additional observations from a re-analysis of the deposited data

Results flagged for a closer look

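Of 126 groups of 4 arrays (42 members in 3 groups), 13 held an array whose gap to its nearest neighbour took up most of the group's range by Dixon's criterion, on the log2 scale. Chance gives such a gap in about 1 in 20 groups. In 10 of them the array was control 3, as the lowest control. Its signals, each followed by the next lowest control, were 140 against 2631 for Erg, 223 against 1689 for Fli1 and 1316 against 9800 for Bcl6b. They were 454 against 11562 for Ramp2, 1280 against 12666 for Pecam1 and 215 against 4459 for Mcam. They were 150 against 10525 for Cd34, 1158 against 12962 for Emcn, 46.2 against 496 for Robo4 and 359 against 5109 for Myct1. The other 3 were Ets1 at 6273 on soluble TNF 3 (next highest 3825), Sox7 at 1805 on tmTNF 3 (next highest 986) and Tek at 702 on soluble TNF 1 (next lowest 1149). The 13 genes share the same 12 arrays, so these are not 13 separate events. tmTNF 2 and tmTNF 4 were low together for many members, so neither stood alone in its group.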

How the results depend on the processing

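Under the alternatives named for the processing, 0 members passed against control in either comparison. Between tmTNF and soluble TNF 1 passed under array weights (Tal1), where 1176 of 10269 genes passed. Leaving out each array in turn also gave 0. Counts of members above 0 were less steady. Leaving out 1 array gave 5 to 31 between tmTNF and control, 4 to 33 between soluble TNF and control and 7 to 28 between tmTNF and soluble TNF. Array weights gave 9 and 10 in the first 2 comparisons, and a common median gave 9 in the first. Median differences ran from -0.97 to 0.24, -0.59 to 0.43 and -0.53 to 0.20 when 1 array was left out. Members with groups that do not overlap numbered 1 to 1, 0 to 8 and 1 to 2 on leaving out 1 array (3.17% to 7.86%, 8.11% to 18.1% and 16.1% to 25.4% of all genes) and 0 between tmTNF and control with a common median (3.84%). On the deposited scale they numbered 1 between soluble TNF and control (7.46%) and 2 between tmTNF and soluble TNF (14.8%), and with no filter again 1 (6.01%) and 2 (11.1%). These 2 settings also took in Aplnr. Its highest rescaled signal in soluble TNF was 31.4, just under its lowest in control, 31.6, and in tmTNF, 31.9, all well below 100. Over all genes, passing counts ran from 16 to 66, 0 to 22 and 28 to 233 on leaving out 1 array, with the extremes without control 4 and tmTNF 1, soluble TNF 1 and control 4, and soluble TNF 2 and control 1. With 2 groups only they were 2 between soluble TNF and control and 439 between tmTNF and soluble TNF, the latter count being 239 with a common median and 1176 with array weights. With a common median, the middle log2 difference of all genes went from 0.03 to -0.12 between tmTNF and control, and 0.08 became -0.15 between tmTNF and soluble TNF. Without control 3, tmTNF 2 and tmTNF 4, chosen after seeing the data, all-gene counts were 4, 17 and 154, member calls 0, 0 and 1, members above 0 numbered 32, 4 and 40, and groups that do not overlap 5, 8 and 19 (16.9%, 14% and 41.8% of all genes). The cause of these shifts was not tested. Over 983 values in each comparison the sign of a member's difference changed in 92, 75 and 54. These values include settings that cannot change a difference, such as no trend. Of the 41 members, 28, 30 and 22 changed sign under at least 1 setting. Of 630 member group means recomputed under other scalings and pseudocounts, 53 moved by more than 1 SD, 51 of them on the deposited scale, which is larger by construction. Signals near or under 100 limit Vwf, Aplnr, Robo4, Cyyr1 and Gpihbp1.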
